A study of Rattus norvegicus with 4 samples.

Results

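Cytosolic ribosomal protein genes were examined in primary Sertoli cells, the somatic supporting cells of the seminiferous tubule, after exposure to 4-nonylphenol (4-NP), an alkylphenol that acts as a weak estrogen. Members were the gene names of the deposited mRNA table that start with Rpl, Rps or Rplp and a number, together with Rpsa, and without the S6 kinases, whose symbols also start with Rps. This rule found 58 of 13114 gene names. The rule used symbols only and no measured value. The cells came from testes of young Sprague-Dawley rats and were cultured for 24 h with 4-NP or without it. There were 2 control and 2 4-NP libraries of total RNA depleted of ribosomal RNA, and the labels name no separate cultures. The spread between libraries that the p-values rest on may therefore be technical. No genetic alteration was stated for either group.

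A cytosolic ribosome is built from a small subunit, which reads the mRNA, and a large subunit, which joins amino acids. Each subunit is a core of ribosomal RNA with one copy of most of its proteins, so the cell makes these proteins in nearly equal numbers. Their mRNAs are among the most abundant of a growing cell, and most start with a C followed by an unbroken run of C and T. This start, the terminal oligopyrimidine (TOP) motif, lets the growth kinase mTOR set how strongly the mRNAs are translated without changing their amount. Several proteins of the set have second roles, such as Rpl5 and Rpl11, which bind the p53 regulator Mdm2 together with the 5S ribosomal RNA.

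The starts of the genes the results turn on are shown because this motif is the sequence feature that members are known to share. Of the 58 members, 45 had an entry among RefSeq promoters of build GRCr8, and 42 of those lay on the chromosome that the deposited table gives. Each line holds 15 bases before and 15 bases from the annotated start, read on the strand of the gene, with the longest run of C and T in capitals. The members printed are those that passed the test or were listed at 0 in a group, where RefSeq had an entry.

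Rpl29, chr8:115947628-115947657, plus strand: gggCCTTTCTCTTTCTCTTCCggtcccagg
Rpl19, chr10:83519049-83519078, plus strand: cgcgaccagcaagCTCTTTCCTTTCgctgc
Rpl35, chr3:43165907-43165936, minus strand: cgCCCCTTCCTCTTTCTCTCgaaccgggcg
Rpl4, chr8:73566462-73566491, plus strand: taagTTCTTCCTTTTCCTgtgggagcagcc
Rplp0, chr12:46718376-46718405, minus strand: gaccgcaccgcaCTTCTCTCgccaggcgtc
Rpl14, chr8:129163605-129163634, plus strand: gggcgggCCCTCTCCCTTCTCgctgagcgc
Rps18, chr20:4933730-4933759, plus strand: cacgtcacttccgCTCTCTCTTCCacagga
Rps27, chr2:177964592-177964621, minus strand: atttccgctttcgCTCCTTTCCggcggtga
Rps15a, chr1:181860270-181860299, minus strand: cggcgTTTTCTTTCCacagtcaccatggtg
Rps19bp1, chr7:113693009-113693038, minus strand: cagcgtgtgggcggggCTTggcagcatgtc
Rps24, chr16:96502-96531, plus strand: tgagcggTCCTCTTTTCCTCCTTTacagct
Rps4y2, chr4:183000898-183000927, plus strand: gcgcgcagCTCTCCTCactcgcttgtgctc
Rpl23, chr10:83272170-83272199, minus strand: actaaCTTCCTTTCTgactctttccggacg
Rpl11, chr5:153560788-153560817, minus strand: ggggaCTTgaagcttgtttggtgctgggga

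A run of at least 6 C or T lay in this window in 30 of 42 members (71.4%), against 28.3% of 33469 RefSeq promoters, and the median longest run was 9 bases against 4. The letters CTTTC were found in 14 of the 42 (33.3%), against 3.59% of all promoters. On the opposite strand, where they read GAAAG, they were in 0 members and 3.82% of all promoters. CTTTC was in 4 of 9 members that were higher in 4-NP, in 1 of 4 that were lower and in 9 of 28 that did not pass. For comparison, 8.93% of 56 ribosome biogenesis genes and 3.77% of 53 mitochondrial ribosomal protein genes held it. Rps19bp1, which the symbol rule takes in although it is a partner of Rps19 and no subunit of the finished ribosome, had a longest run of 3 bases. So did Rpl11, which was lower, and Rpl18, Rpl26, Rpl41 and Rps27l, which did not pass.

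Mapped reads ranged from 96.57 to 118.8 M per library. Expression is given as FPKM, fragments scaled to transcript length and to the mapped fragments of the library, summed over the entries of a gene name. In the control libraries, 9 of 9 markers of peritubular myoid and smooth muscle cells were measured with a sum of 7904 and 7983 FPKM, against 663 and 652 FPKM in 4-NP. The 12 Sertoli cell markers in the table summed to 139 and 129 FPKM in control and 36.9 and 34.3 FPKM in 4-NP, and the Sertoli transcription factor Sox9 and the follicle-stimulating hormone receptor Fshr stayed under 1 FPKM in every library. Summed macrophage markers went from 8.02 and 9.05 to 1.38 and 1.50 FPKM, with Ptprc, the general leukocyte marker, between 0 and 0.0659 FPKM. Of the tested markers, 8 of 9 for smooth muscle and 6 of 7 for Sertoli cells were lower in 4-NP, as were 2 of 2 for macrophages and 2 of 3 for Leydig cells. The 2 macrophage markers, Cd14 and Lyz2, reached the mean of 1 FPKM needed for testing only through their control values. The same held for Cldn11, Dhh and Wt1 of the Sertoli list. Of the untested macrophage markers, Cd68 was at 0.0888 and 0.301 FPKM in control and at 0.552 and 0.812 FPKM in 4-NP. The others had lower means in 4-NP. The Leydig cell sum was 423 and 419.8 FPKM in control and 829 and 803 FPKM in 4-NP, led by Star. The part of these markers in the ribosomal protein values was not tested. In bulk RNA, fewer cells of a type and less RNA per cell cannot be told apart.

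Ribosomal protein mRNAs were among the most abundant in every library, and their summed level was higher in both 4-NP libraries than in either control. They made up 17.1% and 17.5% of summed FPKM in control and 18.1% and 17.9% in 4-NP. Their sum was 45198 and 48344 FPKM in control and 51652 and 51362 FPKM in 4-NP, a ratio of 1.10 ± 0.05 (SD, n = 2 per group). The sum over all genes had a ratio of 1.06 ± 0.03. Of the 20 genes with the highest mean FPKM in the table, 12 were members. Between 20 and 23 members were at 1000 FPKM or more in a library, and 8 were under 10 FPKM.

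Of 57 members whose mean reached 1 FPKM, 15 were higher in 4-NP, 6 were lower and 36 did not pass (limma on log2(FPKM + 1), Benjamini-Hochberg adjusted p under 0.05 over 8012 genes). Across all 8012 genes tested, 24.7% were higher and 23.1% were lower, so the share of members that were higher (26.3%) was near that background, and the share that were lower (10.5%) was smaller. At an unadjusted p under 0.05, 27 members passed. The median log2 change of the members was 0.13, against 0.05 over all genes tested. Scaling the libraries to equal totals gave 12 higher and 11 lower, with a median of 0.05 against -0.02 over all genes. The other scaling, by each library's median ratio to the genes' geometric means, gave 17 higher and 6 lower. Its median was 0.16 against 0.08 over all genes. The excess of higher over lower members therefore depended on the scaling. Leaving out 1 library at a time gave 11 higher and 3 lower without control replicate 1, 13 and 3 without control replicate 2, 4 and 1 without 4-NP replicate 1, and 7 and 3 without 4-NP replicate 2. Rpl29 and Rps19bp1, which were higher, and Rpl39l, which was lower, were among those that passed without 4-NP replicate 1. Of the 21 called members, 4 passed under every alternative in which they were fitted, Rpl29 and Rps19bp1 among them, and 0 changed direction under any of the 13 alternatives run. Rpl29 was listed at 0 in both controls, so its controls had no spread in any fit. Its passing there says nothing about stability.

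**Figure D1:**
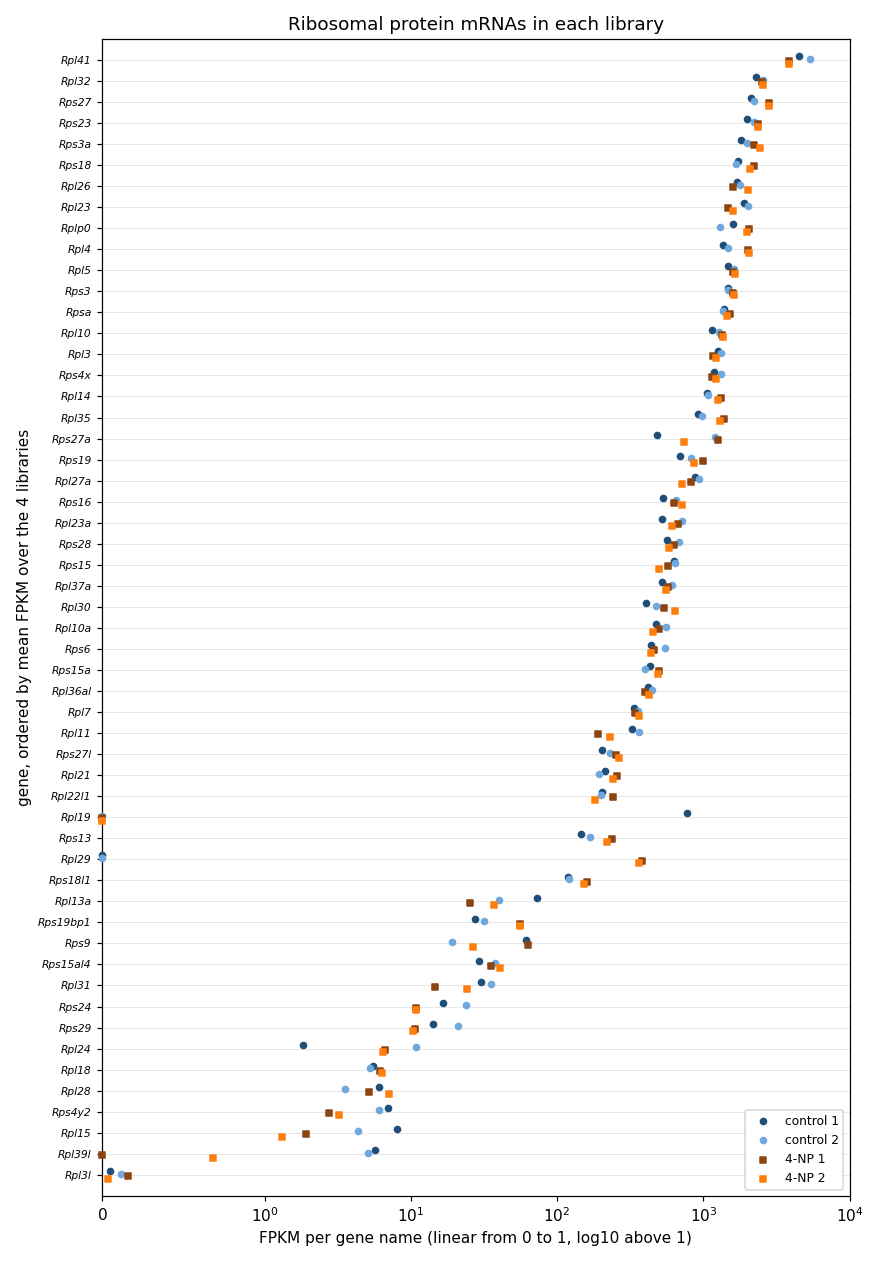
FPKM of 54 of the 58 members in each of the 4 libraries (circles, control; squares, 4-NP), on an axis that is linear from 0 to 1 and log10 above it, with genes ordered by mean. Most have a mean of at least 100 FPKM, with the 4 libraries close together, while Rpl29 is at 0 in both controls and Rpl19 is above 0 in control 1 only.

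Most members changed little in size. The median size of the log2 change, whatever its direction, was 0.29 in members, 0.63 over all genes tested and 0.70 over the 464 genes whose mean reached 100 FPKM. The change was under 0.5 in 41 of 57 members (71.9%), against 41.6% of all genes and 40.3% of those at 100 FPKM or more. The 95% interval of the change lay within 1 on the log2 scale in 42 members (73.7%), against 40.5% of all genes and 54.1% of the abundant ones. A change beyond 1 that passed the test was found in 3 members, Rpl29, Rpl39l and Rpl15, against 25.5% of all genes. Rpl29 was listed at 0 in both controls, and Rpl39l and Rpl15 had means of only 2.86 and 3.89 FPKM.

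**Figure D2:**
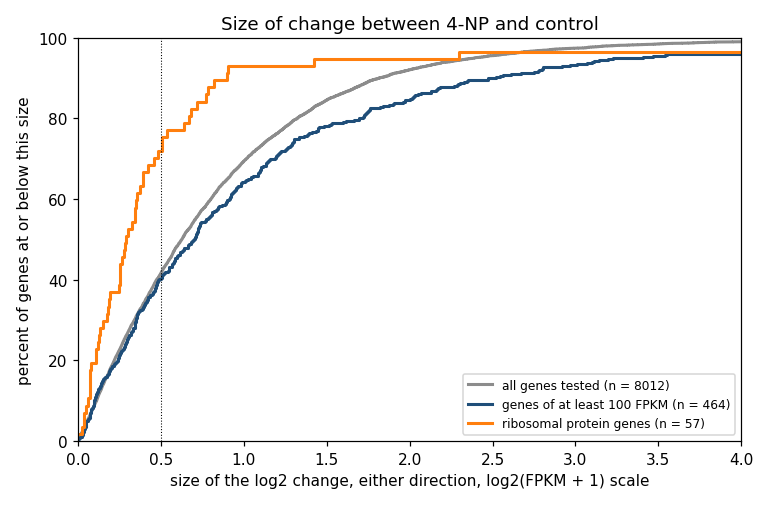
Cumulative percent of genes (vertical axis) by the size of the log2 change in either direction (horizontal axis, up to 4) for all genes tested, for genes of at least 100 FPKM and for the ribosomal protein genes, with a dotted line at 0.5. The members' curve is at 71.9% at the dotted line, where the other curves are at 41.6% and 40.3%.

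The calls were also counted by abundance. Of the 44 members at 100 FPKM or more, 14 were higher and 2 were lower, while 45.7% of all genes at that level were higher and 25.9% were lower. Of the 13 tested members under 100 FPKM, 1 was higher (7.69%) and 4 were lower (30.8%), with a median log2 change of -0.67. Over all genes tested, whatever their level, 24.7% were higher and 23.1% were lower, with a median of 0.05. Genes under 100 FPKM were not counted apart. The groups did not overlap in 38 of 57 members (66.7%), 25 with both 4-NP libraries above both controls and 13 below, against 76.4% of all genes tested.

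Small subunit symbols were 26, of which 8 were higher (30.8%) and 2 were lower (7.69%), with a median log2 change of 0.22. Across all genes tested, 24.7% were higher and 23.1% were lower. The 8 include Rps19bp1, which is no subunit of the finished ribosome. Small subunit symbols summed to 19860.3 and 21652 FPKM in control and 25015 and 24398 FPKM in 4-NP, a ratio of 1.19 ± 0.08 (SD). Both 4-NP libraries lay above both controls. Large subunit symbols were 32, of which 31 were tested, with 7 higher (22.6%), 4 lower (12.9%) and a median of 0.06. Without Rpl19 and Rpl29, their sum was 24565 and 26692 FPKM in control and 26259 and 26599 FPKM in 4-NP, a ratio of 1.03 ± 0.06, and the groups overlapped. The difference between the subunits was not tested.

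**Figure D3:**
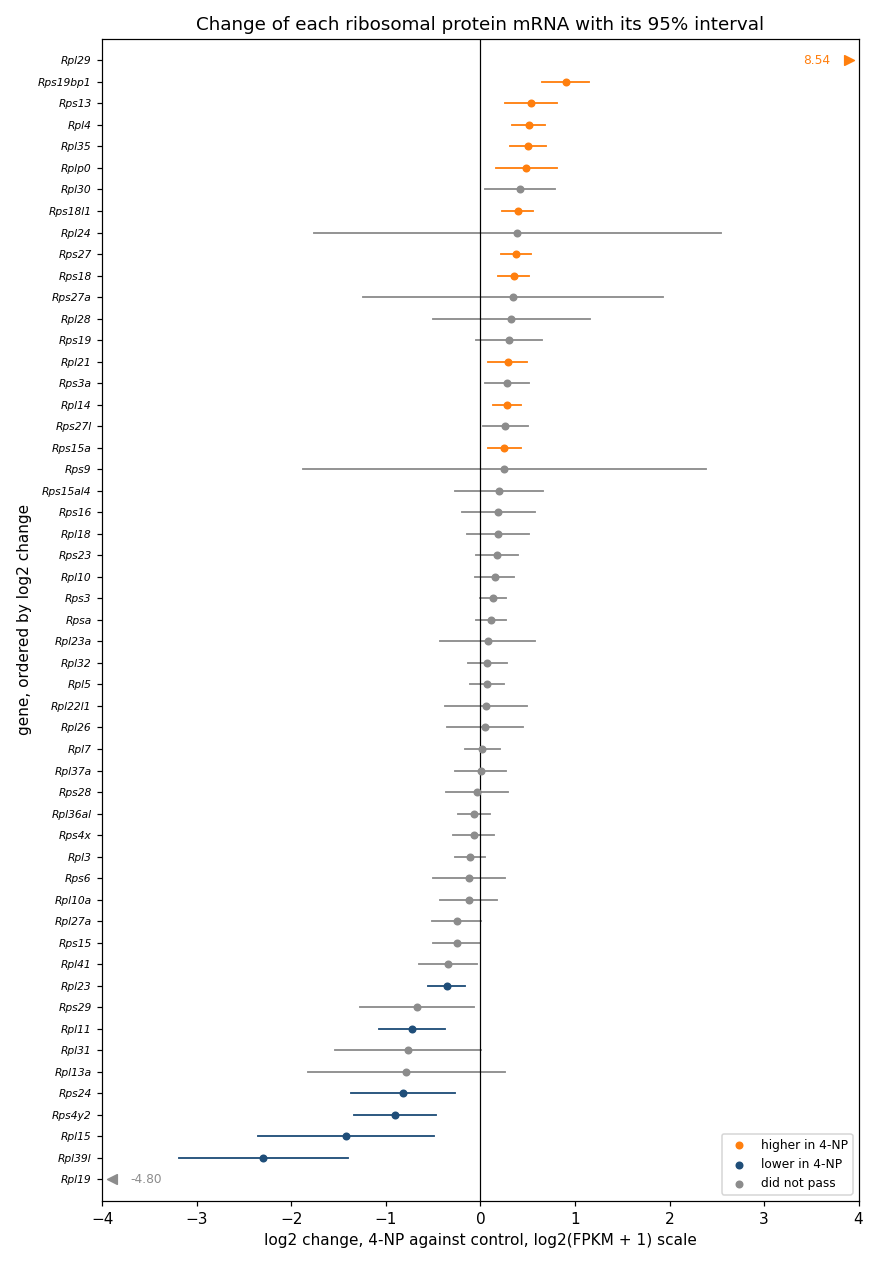
Log2 change of 53 of the 57 tested members between 4-NP and control on the log2(FPKM + 1) scale, with 95% intervals from limma, coloured by whether the member passed the test. Arrows at the edge mark Rpl29 (8.54) and Rpl19 (-4.80), which lie beyond the axis, and most of the other members lie between -1 and 1.

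There were 2 members listed at 0 in a whole group, 3.51% of the tested members, against 60 of all genes tested (0.749%). Rpl29, a protein of the large subunit surface, had no value above 0 in either control library, while the 4-NP libraries held 379 and 365 FPKM. Its change of 8.54 ± 0.08 (SE) on the log2(FPKM + 1) scale passed the test (limma, adjusted p = 0.000367), and its size is set by the pseudocount of 1, so no fold is given. The deposited table has 1 entry for it, with 4 exons on chromosome 8 from 115131367 to 115133401, on a genome build not given in the sources used here. Rpl19, which lies at the rim of the tunnel through which the new peptide leaves, was at 773 FPKM in control 1 and was listed at 0 in control 2 and in both 4-NP libraries. It did not pass (limma, adjusted p = 0.329), and without control replicate 2 it passed with a change of -9.60, again set by the pseudocount. That fit holds a single control library against 4-NP libraries that are both at 0, so it has no control spread of its own and says nothing about stability. A value of 0 is reported here only as what the table lists.

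Of the small subunit symbols, 8 passed as higher in 4-NP and 2 as lower, shares that are given above beside all genes. Rps13, in the body of the subunit, rose from 146 and 169 to 237 and 219 FPKM (0.53 ± 0.10, limma, adjusted p = 0.0179). Its only entry in the table has 1 exon. Rps18, at the top of the head where the subunits meet, rose 1.28-fold, and Rps27, a zinc-finger protein of the platform, rose 1.30-fold from 2108 and 2231 to 2812 and 2821 FPKM. Rps18l1, a single-exon entry named after Rps18, rose 1.32-fold, and Rps15a rose 1.19-fold, although Rps15a did not pass in 7 of 12 alternatives. Rps13 and Rps18 each did not pass in 4 of 13.

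Of the 9 tested members in the list for the head, 2 were higher (22.2%), Rps18 among them, and 0 were lower. In the list for the body and platform, 4 of 12 were higher (33.3%) and 1, Rps24, was lower (8.33%). The shares over all genes tested were 24.7% higher and 23.1% lower. Rps24, which takes part in the maturation of the small subunit RNA, was at 16.7 and 23.8 FPKM in control and at 10.8 and 10.9 FPKM in 4-NP (-0.82 ± 0.19, limma, adjusted p = 0.0355). Rps29, a zinc-binding protein of the head, had 14.3 and 21.1 FPKM in control and 10.7 and 10.4 FPKM in 4-NP and did not pass (adjusted p = 0.0714). These were low members, and the controls differed from each other more than the 4-NP libraries did. Rps24 did not pass in 5 of 12 alternatives, and the only entry of Rps29 has 1 exon. Rps15, another head protein, had 627 and 637 FPKM in control and 569 and 495 FPKM in 4-NP, a change that missed the threshold (adjusted p = 0.0859).

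Rps6, the member that S6 kinases phosphorylate, had 436 and 551 FPKM in control and 459.8 and 441 FPKM in 4-NP, and the groups overlapped. Rpsa, which also serves as a laminin receptor, differed by 0.11 on the log2 scale (95% interval -0.05 to 0.27) and did not pass. Rps3, which also takes part in DNA repair, differed by 0.13 (95% interval -0.00074 to 0.27, adjusted p = 0.0912). Rps27a, made as a fusion with ubiquitin, differed widely within groups. It had 479 and 1203 FPKM in control and 1254 and 742 FPKM in 4-NP, so that libraries of one group differed more than the group means. Its only entry in the table has 1 exon and lies on chromosome 5.

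On the large subunit, Rpl4 and Rpl35 of the peptide exit tunnel led the members above 0 in all libraries. Rpl4, whose long loop lines the tunnel, went from 1373 and 1479 to 2009 and 2049 FPKM, a 1.42-fold difference (0.51 ± 0.06, limma, adjusted p = 0.00673). Rpl35, at the tunnel exit, went from 921 and 974 to 1393 and 1297 FPKM, also 1.42-fold (0.50 ± 0.07, limma, adjusted p = 0.00812). In both genes the 4-NP libraries lay well above the controls. Of the 6 tested tunnel members these were the 2 that passed (33.3%), against 47.8% of all genes tested that passed in either direction. Rpl31, also at the tunnel exit, was at 30.2 and 35.6 FPKM in control and at 14.6 and 24.1 FPKM in 4-NP, and did not pass (adjusted p = 0.0908).

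Rplp0, the base of the stalk that recruits translation factors and a common reference gene in quantitative PCR, was at 1587 and 1306 FPKM in control and at 2045 and 1982 FPKM in 4-NP. It was 1.39-fold higher (0.48 ± 0.11, limma, adjusted p = 0.0342) and the groups did not overlap. It did not pass in 5 of 13 alternatives, scaling to equal totals among them (limma, adjusted p = 0.0784). It was the only one of 4 listed stalk proteins in the table. Rpl21 and Rpl14 rose 1.22-fold and 1.21-fold, but Rpl21 did not pass in 8 of 13 alternatives and Rpl14 in 5 of 12, each time a library was left out among them. Rpl30 had 403 and 476 FPKM in control and 541 and 636 FPKM in 4-NP, which did not pass although the groups did not overlap (adjusted p = 0.0675). The only entries of Rpl21 and Rpl30 have 1 exon each. Near the peptidyl transferase centre, the site of peptide bond formation, Rpl3 and Rpl10 did not pass, with 95% intervals of -0.27 to 0.05 and -0.06 to 0.36.

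The 2 proteins that carry the 5S ribosomal RNA differed in their values. Rpl5 was at 1485 and 1611 FPKM in control and at 1603 and 1644 FPKM in 4-NP, with a change of 0.07 (95% interval -0.11 to 0.25). Rpl11 was at 326 and 363 FPKM in control and at 189.8 and 229 FPKM in 4-NP (-0.72 ± 0.12, limma, adjusted p = 0.0156), and both 4-NP libraries were below both controls. The ratio of Rpl11 to Rpl5, both per length, was 0.220 and 0.225 in control and 0.118 and 0.139 in 4-NP. Rpl23, a large subunit protein that can also bind Mdm2, was at 1898 and 2019 FPKM in control and at 1469 and 1589.7 FPKM in 4-NP (-0.36 ± 0.07, limma, adjusted p = 0.0214). Its ratio to Rpl5 went from 1.28 and 1.25 to 0.916 and 0.967. Neither ratio was tested. Rpl11 did not pass in 3 of 12 alternatives and Rpl23 in 5 of 13.

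Rpl41, the shortest protein of the ribosome, had the highest level of the set. It was at 4486 and 5392 FPKM in control and at 3874 and 3872 FPKM in 4-NP, below both controls, and did not pass (adjusted p = 0.0691). Rpl32 followed with 2304 and 2561 FPKM in control and 2538 and 2577 FPKM in 4-NP, where the groups overlapped. Rps23, at the decoding centre, had 1980.1 and 2235 FPKM in control and 2373 FPKM in each 4-NP library (adjusted p = 0.151). Rps3a had 1822 and 1980.4 FPKM in control and 2205 and 2429 FPKM in 4-NP and just missed the threshold (adjusted p = 0.0557). Rpl27a, with 879 and 941 FPKM in control and 818 and 716 FPKM in 4-NP, did not pass either (adjusted p = 0.0973). Of the 5 most abundant members only Rps27, described above, passed.

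The lowest members with a call were lower in 4-NP. Rpl39l, a paralogue of Rpl39 known in mice for its use in male germ cells, was at 5.66 and 5.08 FPKM in control, listed at 0 in 4-NP replicate 1 and at 0.682 FPKM in 4-NP replicate 2 (-2.29 ± 0.31, limma, adjusted p = 0.00904). Rps4y2 was at 6.98 and 6.01 FPKM in control and at 2.77 and 3.23 FPKM in 4-NP (-0.91 ± 0.15, limma, adjusted p = 0.0150), and its entry has 1 exon. Rpl15 was at 7.99 and 4.36 FPKM in control and at 1.91 and 1.30 FPKM in 4-NP (-1.42 ± 0.33, limma, adjusted p = 0.0323). Its only entry had a mean of 3.89 FPKM, against a median of 582 FPKM over the tested members. Whether this entry holds most of the Rpl15 mRNA was not tested. Rpl39l, Rps4y2 and Rpl15 all had low levels and groups that did not overlap. Rps4y2 and Rpl15 each did not pass in 4 of 12 alternatives, and Rpl39l in 1 of 12. Among germ cell markers in the same libraries, 4 of 5 tested were also lower and Uchl1 was higher. Of the 4, Tex101, Dazl and Kit reached the mean of 1 FPKM needed for testing only through their control values. The sum of the germ cell markers was 39.4 and 25.1 FPKM in control and 72.3 and 97.2 FPKM in 4-NP. Uchl1 held most of the 4-NP sum, with 68.0 and 91.7 FPKM, against 17.2 and 3.16 FPKM in control. The part of germ cells in the Rpl39l value was not tested.

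The other tested genes of the paralogue list did not pass. Rps4x among them is also in the list for the body and platform of the small subunit. Rps27l, a p53 target in human cells, had 202 and 228 FPKM in control and 252 and 264 FPKM in 4-NP (adjusted p = 0.0709). Rpl22l1 had 202 and 201 FPKM in control and 242 and 183 FPKM in 4-NP, and Rpl36al had 421 and 443 against 401 and 422 FPKM. Rps4x had 1183 and 1311 against 1150.2 and 1219 FPKM. The groups overlapped in the last 3 genes. Rpl3l, a paralogue used in striated muscle, stayed between 0.0350 and 0.157 FPKM and was the 1 member not tested. Rps19bp1, the Rps19 partner that also binds the deacetylase Sirt1, was at 27.6 and 31.4 FPKM in control and at 55.8 FPKM in each 4-NP library, 1.89-fold higher (0.90 ± 0.09, limma, adjusted p = 0.00441).

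Transcript entries under one name did not always move together. The 58 names covered 70 entries, 12 names having 2. In 6 of those, Rpl3, Rpl13a, Rpl26, Rpl32, Rps15a and Rps16, the entries had log2 changes of opposite sign. In Rpl3, the main entry with 10 exons was at 1236 and 1300 FPKM in control and at 1116 and 1163 FPKM in 4-NP, while a shorter entry with 5 exons was at 24.3 and 22.8 against 55.6 and 60.4 FPKM. The shorter entry was above both controls and the main entry below them. In Rpl13a, an entry of 1039 bases was at 65.6 and 32.5 FPKM in control and at 14.2 and 22.1 FPKM in 4-NP, and an entry of 832 bases at 6.83 and 7.53 against 11.3 and 15.2 FPKM. Summed, Rpl13a did not pass (adjusted p = 0.161), although each of its entries had groups that did not overlap. In Rps16, an entry with 4 exons went from 301 and 314 to 412 and 427 FPKM and an entry with 5 exons had 231 and 338 against 216 and 293 FPKM.

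In Rps15a the larger entry was at 354 and 317 FPKM in control and at 427 and 408 FPKM in 4-NP, and the smaller one at 76.2 and 80.9 against 70.6 and 80.8 FPKM. In Rpl26 the second entry was under 5 FPKM in every library. Rpl32 was listed on chromosomes 4 and 6, the latter entry with 1 exon at 207 to 284 FPKM, and Rps4x on chromosomes X and 4, the latter also with 1 exon. An entry of Rps9 was at 40.4 and 0.405 FPKM in control and at 39.6 and 3.68 FPKM in 4-NP, so replicate 1 was the higher one in both groups. Entries of one name can share reads, and 8 members had only single-exon entries, Rps13, Rps29, Rpl21 and Rpl30 among them. How reads were divided among copies is therefore uncertain for these values.

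**Figure D4:**
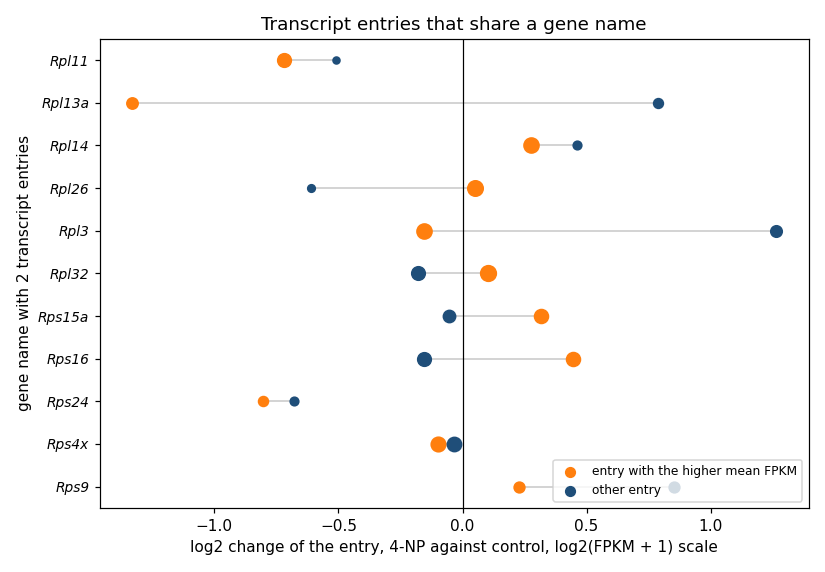
Log2 change (horizontal axis, log2(FPKM + 1) scale) of the transcript entries of 11 of the 12 gene names with 2 entries, with larger dots for higher mean FPKM. In 6 names the entries lie on opposite sides of 0, with those of Rpl3 at -0.15 and 1.26.

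Of the ribosomal proteins that the symbol rule leaves out, Rack1, a scaffold on the head of the small subunit, was higher (1275 and 1276 against 1712 and 1679 FPKM, limma, adjusted p = 0.00598). Fau, which encodes a small subunit protein fused to a ubiquitin-like protein, was lower, at 184 and 252 FPKM in control and at 38.2 and 71.0 FPKM in 4-NP (limma, adjusted p = 0.0177). Whether they moved with the members was not tested.

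The genes that make and guard ribosomes are given beside the same background of 24.7% higher and 23.1% lower over all genes. In the list for ribosome biogenesis and RNA polymerase I, which transcribes ribosomal RNA, 33 of 54 tested genes were higher (61.1%) and 1 was lower, with a median log2 change of 0.66. Leaving out 4-NP replicate 2 left 13 higher and 2 lower with a median of 0.65, leaving out control replicate 1 left 19 higher and 1 lower, and leaving out 4-NP replicate 1 left 20 higher and 1 lower. Wdr75, a component of the early small subunit precursor, went from 23.3 and 25.1 to 75.8 and 84.9 FPKM (limma, adjusted p = 0.00159). Eif6, which keeps new large subunits from joining too early, went from 96.7 and 88.0 to 240.01 and 228 FPKM (limma, adjusted p = 0.00166). Rrp1 and Bysl, factors of large and small subunit assembly, rose 3.27-fold and 2.42-fold.

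Dedicated chaperones, which hold single ribosomal proteins until assembly, were higher in 5 of 7 tested genes and lower in 0, with a median of 0.69. Pdcd2, which escorts Rps2, went from 17.0 and 20.0 to 45.2 and 45.0 FPKM (limma, adjusted p = 0.00335). Heatr3, which helps import Rpl5, went from 6.85 and 8.04 to 14.2 and 14.4 FPKM, while Rpl5 itself had the narrow interval given above. Pdcd2l, a relative of Pdcd2, rose 4.08-fold, and Aamp, which binds new Rpl10, rose 1.62-fold. Leaving out 1 library gave 3 higher and 1 lower without control replicate 1, 3 higher without control replicate 2 and 2 higher without either 4-NP replicate.

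Of 9 tested genes that rescue or remove stalled ribosomes, 5 were higher and 0 were lower, with a median of 1.15. Pelo, which with Hbs1l opens ribosomes stuck at an mRNA end, went from 18.4 and 18.2 to 51.3 and 50.1 FPKM (limma, adjusted p = 0.00125). Abce1, which splits the subunits, rose 1.80-fold, Gcn1l1, which senses colliding ribosomes, 2.31-fold, and Hbs1l 4.05-fold. Leaving out either 4-NP replicate gave 3 higher genes. Of 12 other tested mRNAs with a TOP start, 5 were higher and 1 was lower. Tpt1, a growth-related protein, rose 3.35-fold to 2718 and 3360 FPKM, Eif3h, an initiation factor subunit, 2.92-fold and Eef1g, an elongation factor subunit, 1.18-fold. Vim, the intermediate filament vimentin, fell from 1568 and 1770 to 428 and 426 FPKM. The number higher fell to 1 without control replicate 1, to 2 without 4-NP replicate 2 and to 3 without either of the others.

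Of 7 tested S6 kinases, 2 were higher and 0 were lower. Rps6kc1, a kinase-like protein of endosomes, was at 7.90 and 4.18 FPKM in control and at 18.6 and 24.1 FPKM in 4-NP, and Rps6ka5, a nuclear stress kinase, rose 1.42-fold, with 0 of these kinases called without either 4-NP replicate, 1 without control replicate 2 and 1 after scaling to equal totals. Mitochondrial ribosomal proteins, which build the separate ribosome of the mitochondrion, were higher in 27 of 68 tested genes and lower in 8, with a median of 0.26. The 35 calls of that set compare with 22 without control replicate 1 and with 19 without each of the other libraries in turn. The median size of their change was 0.35, against 0.29 for the cytosolic set. Whether these lists differ from the cytosolic proteins was not tested.

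**Figure D5:**
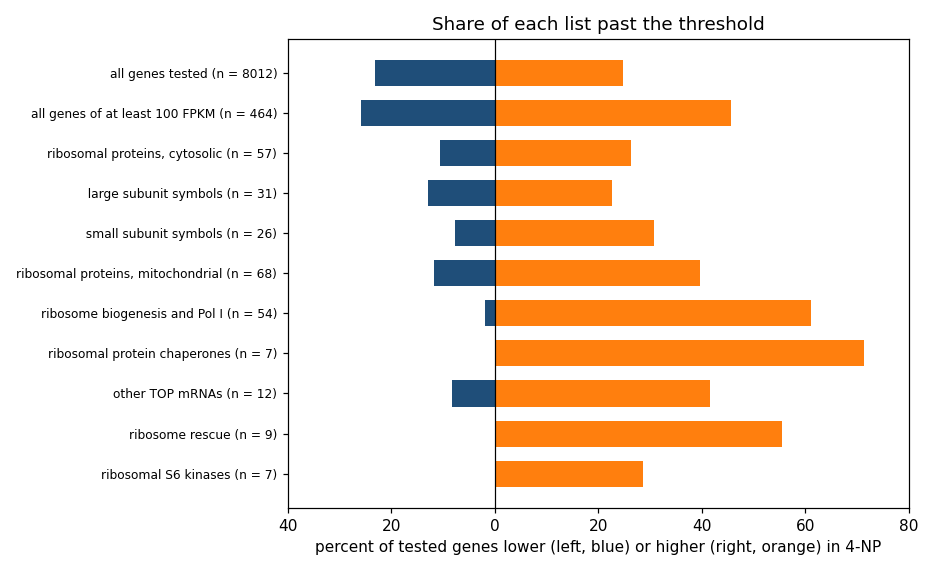
Percent of tested genes of each list that were higher (right) or lower (left) in 4-NP, beside all genes tested and all genes of at least 100 FPKM, with the number tested after each name. Ribosome biogenesis reaches 61.1% higher, the cytosolic ribosomal proteins 26.3% higher and 10.5% lower, and all genes 24.7% and 23.1%.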

How the data were processed

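Members and gene lists were chosen with earlier results of these data known. Total RNA of 2 control and 2 4-NP libraries was compared, with groups and replicate numbers from the sample titles. For mRNAs the authors deposited FPKM per transcript, 1 value per library. HISAT2 and DESeq2 are named in the notes of the submitters, FastQC and edgeR in the study. The study calls its sequencing strand-specific. Versions of these tools, the tool for FPKM, the strand setting in counting and the genome build were not given in the sources used here. The authors also deposited fold changes, their log2 values, p-values and q-values, none of which was used. For circRNAs the authors deposited read counts and a scaled signal, spliced reads scaled to mapped reads. The ratio of both gave the mapped reads per library, and nothing else was taken from that table. The lncRNA table holds no ribosomal protein entry and was not used.

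Of 17290 mRNA rows, 1545 repeated transcript names were dropped, 1544 of them identical to an earlier row. FPKM of the 15745 remaining entries was summed over 13114 gene names. Names with a mean of at least 1 FPKM (8012) were tested on log2(FPKM + 1), group only, with limma 3.58.1 (trend) in R 4.3.3, two-sided, with Benjamini-Hochberg adjustment at 0.05 over all of them. This scale understates the change of low genes, and fold values are ratios of mean FPKM. Reads per gene were not recovered, so the precision of a single FPKM is unknown, and the edgeR test set down for counts was not run. On values simulated for the 8012 genes, the test recovered 0% of log2 changes of 0.5, 4% of changes of 1 and 88.75% of changes of 2. The simulation gave every gene the same spread, pooled over all genes, so it does not give the recovery for abundant members. In the data, Rpl14 passed with a change of 0.28. Values per library are given for members at 0 in a group, the 10 highest and 10 lowest changes with a mean of at least 5 FPKM, the 5 most abundant members, the P stalk, 5S RNA particle and paralogue lists, and names whose entries differ in sign. From other lists the 4 smallest p-values were taken, and some of these are left out. Some members count in totals but are not reported here by name. Rpl14, Rpl15, Rpl21, Rps3, Rps6, Rps9, Rps18l1, Rps27a and Rpsa fall outside this rule and were chosen after their values were seen. Starts were read from RefSeq promoters of GRCr8, matched by symbol and chromosome. Alternatives were 2 scalings, the pseudocount, 2 filters, the replicate number as a block, single transcript entries, no trend, names at 0 in a group left out and leaving out each library. Python 3.11.15 with pandas 2.3.3, numpy 2.4.6 and matplotlib 3.10.9 did the other steps.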

Additional observations from a re-analysis of the deposited data

How the results depend on the processing

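Depth per gene is unknown, and with 2 libraries a group each library weighs heavily. Scaling to equal totals gave 11 lower members, a median log2 change of 0.049 and a summed FPKM ratio of 1.04. It also turned the sign of members that did not pass, with log2 changes of -0.025 (Rpl22l1), -0.0065 (Rpl23a), -0.037 (Rpl26), -0.0095 (Rpl32), -0.083 (Rpl37a), -0.014 (Rpl5) and -0.061 (Rpl7). A mean of at least 5 FPKM left 3 lower members, since the low ones were no longer tested. Leaving out 1 library at a time gave 4 to 13 higher and 1 to 3 lower members, a median of 0.028 to 0.136 and 19 to 22 mitochondrial calls. Each of these fits leaves 1 library in a group, which is assumed to vary like those of the other group. The cause of the shifts was not tested. The same step moved 12 members that did not pass across 0, with changes of -0.143 to 0.260 (Rpl22l1), -0.145 to 0.299 (Rpl23a), -0.64 to 1.42 (Rpl24), -0.132 to 0.226 (Rpl26), -0.0018 to 0.150 (Rpl32), -0.114 to 0.116 (Rpl37a), -0.023 to 0.068 (Rpl7), -0.32 to 1.01 (Rps27a), -0.168 to 0.097 (Rps28), -0.147 to 0.0019 (Rps4x), -0.290 to 0.047 (Rps6) and -0.57 to 1.07 (Rps9). Limma without trend gave 10 higher and 5 lower members. Among TOP mRNAs, 2 were higher with no filter on low values and 2 with limma without trend, against 5. Of the S6 kinases, 1 was higher after scaling to equal totals, and 1 was higher and 1 lower with no filter.

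The replicate numbers are not said to mark shared cultures, and deviations of same-numbered libraries correlated at -0.0077 across 8012 genes. With the replicate block, 15 members were higher and 5 were lower, and 26 mitochondrial genes were called. Rps13 (adjusted p = 0.0549), Rps15a (0.0522) and Rps24 (0.0582) no longer passed, Rpl30 (0.0205) and Rps3a (0.0343) passed, and 0 of the S6 kinases were called (limma).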
